A study of Oncorhynchus mykiss with 6 samples.

Results

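The miR-15 and miR-16 family was followed across head kidney libraries of rainbow trout (Oncorhynchus mykiss). Its members were all deposited rows whose Atlantic salmon (ssa) name carries family number 15 or 16, whatever the letter, copy and arm. This rule by name used no measured value, but it was set with earlier results of these data known. There were 17 such rows among 1381, 11 of miR-15 and 6 of miR-16, and 15 of them held enough counts to be tested (10 of miR-15 and 5 of miR-16). Small RNA was sequenced from the head kidney of 6 females aged 1 year, with 1 library per fish. In teleosts this organ makes blood cells and holds much of the immune tissue. The control group (CK) was 3 fish held at 18 °C and the heat-treated group (HK) was 3 fish held at 24 °C, and the study asked which microRNAs respond to heat stress in this organ. No strain or further treatment is named, and how long the heat lasted is not stated in the sources used here.

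MicroRNAs (miRNAs) are short RNAs cut from a hairpin, from its 5′ side (the 5p arm) or its 3′ side (the 3p arm), that guide the repression of target mRNAs. In mammals a miR-15 and a miR-16 hairpin lie side by side, one such pair in the non-coding gene DLEU2 and another in an intron of SMC4, and their 5p arms carry the same seed, the short stretch that recognises targets. They are known there as brakes on the cell cycle and on survival, acting on mRNAs such as those of BCL2 and the D-type cyclins, and the DLEU2 pair is often deleted in chronic lymphocytic leukaemia. The letters a to e mark related hairpins. Sequences and genomic positions of the rows were not used here.

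Library totals ran from 3753036 to 5156793 counts, so that 3 counts, taken as the floor, equalled 0.579 to 0.807 CPM. CPM here means counts set to 1 library size after TMM scaling, a correction for library composition. The miRNAs known to mark blood and immune cells were present. The leukocyte list (miR-142, miR-150 and miR-155 rows) summed to 9590 to 17031 CPM at 18 °C and 13832 to 17472 CPM at 24 °C. The sum was lowest in control fish 2, as was miR-142a-5p (1950 CPM, against 4361 to 6675 CPM in the other fish). Not every row followed the sum. miR-150-5p was lowest in control fish 3 (615 CPM, against 635 CPM in control fish 2), and miR-155-5p was lowest in control fish 1. The erythroid list had both arms of miR-144. No annotated row was named miR-451, miR-223 or miR-208. The samples are whole tissue, so fewer cells of a type and less RNA per cell cannot be told apart.

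Together the members took 1.45% ± 0.254 of all counts in the control fish and 1.40% ± 0.288 in the heat fish (SD, n = 3 each). The share was lowest in heat fish 2 (1.07%, exact Clopper-Pearson 95% interval 1.06% to 1.08%, counting error only) and highest in control fish 2 (1.75%, interval 1.73% to 1.76%). Their summed level was 14542 ± 2692 CPM in the control and 13930 ± 2259 CPM in the heat fish, a log2 ratio of -0.06 against a pooled SD of 0.25 between fish of a group. The sign of this ratio turned without control fish 2 (0.03) or heat fish 2 (0.06), so the sum had no stable direction.

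One row made up most of the family. miR-16a-5p held 65.1% of the members' summed level and ranked 24th of the 1381 rows. It stood at 8624, 11528 and 8402 CPM in control fish 1 to 3 and at 10023, 7547 and 9472 CPM in heat fish 1 to 3. Control fish 2 was highest and heat fish 2 lowest, and the groups overlapped.

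The other miR-16 rows of the 5p arm were less abundant and followed the same order of fish in their extremes. For miR-16b-5p the control fish had 1367, 1720 and 1277 CPM and the heat fish 1541, 1155 and 1455 CPM. For miR-16c-5p these values were 969, 1138 and 825 CPM and 991, 773 and 963 CPM. In both, control fish 2 was again highest and heat fish 2 lowest.

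The miR-15 hairpins were led by the letters d and c. miR-15d-5p had 1227, 1442 and 1250 CPM in the control fish and 1487, 946 and 1541 CPM in the heat fish. miR-15c-5p had 829, 1497 and 774 CPM in the control fish and 1119, 709 and 1185 CPM in the heat fish. Both were lowest in heat fish 2, but the highest fish was heat fish 3 for letter d and control fish 2 for letter c.

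The 5p arms of letters b, e and a were far rarer. miR-15b-5p had 83.6, 57.04 and 54.2 CPM in the control fish and 59.4, 48.0 and 89.1 CPM in the heat fish, high in 1 fish of each group. miR-15e-5p lay between 14.1 and 27.0 CPM over the 6 libraries. miR-15a-5p, the main product of its hairpin in mammals, lay between 7.06 and 16.2 CPM, from 294 counts in all.

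The rows of the 3p arm, in mammalian miR-15 and miR-16 the side that is mostly discarded, were led by miR-15a-3p. It had 34.1, 78.8 and 34.1 CPM in the control fish and 59.04, 50.6 and 120.4 CPM in the heat fish, highest in heat fish 3. miR-15c-2-3p ranged from 29.5 to 74.3 CPM, miR-15b-3p from 14.01 to 32.4, miR-15d-3p from 6.12 to 31.04, miR-16b-3p from 10.6 to 14.2, miR-15e-3p from 3.09 to 13.7 and miR-16a-2-3p from 1.93 to 4.71 CPM. The 2 rows that could not be tested were miR-16a-3p, with 4 counts over 6 libraries, and miR-15c-3p, with 1 count.

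**Figure D1:**
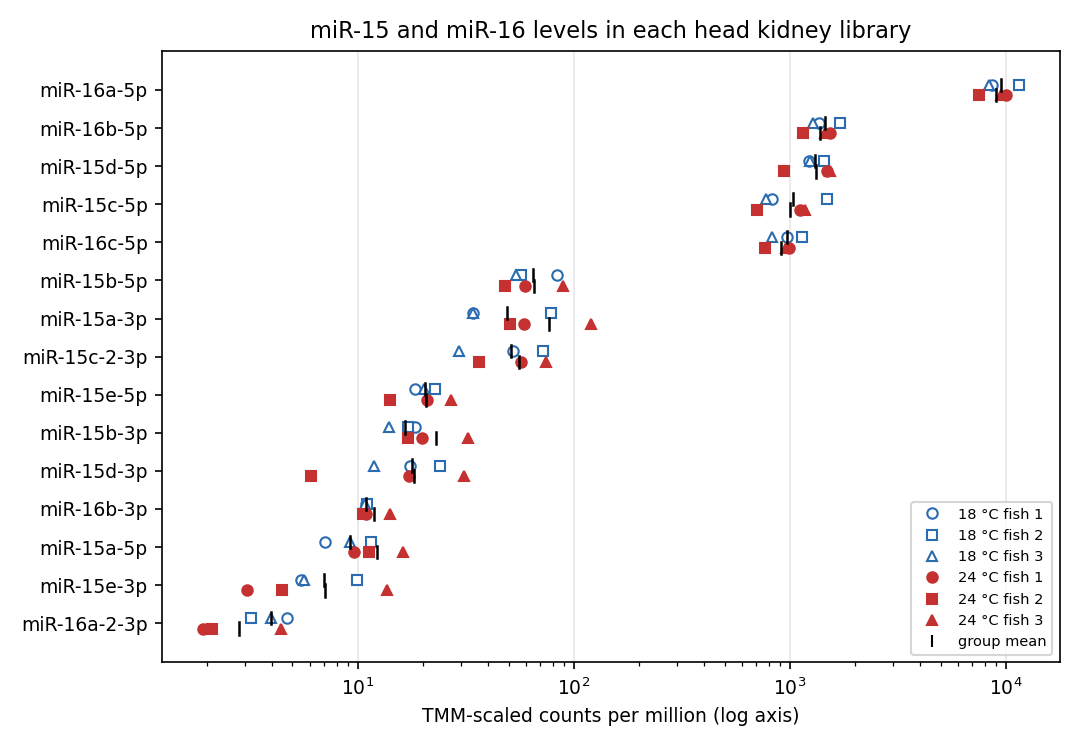
Level of each tested miR-15 and miR-16 row in the 6 libraries, in TMM-scaled CPM on a log axis; open blue symbols are the 18 °C fish, filled red symbols the 24 °C fish, and the symbol shape gives the fish number. Vertical ticks are group means. The 5 most abundant rows, all 5p arms, stand apart from the rest, and the 2 groups overlap in every row.

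Mature miRNAs are of nearly equal length, so these levels were ordered without a length term. How evenly library preparation captured different sequences was not measured, so the order and its fold steps are those of counts. The ranges over the 6 libraries were apart at only 3 of the 14 steps down the order of the 15 tested rows. miR-16a-5p lay above miR-16b-5p by 6.53-fold, miR-16c-5p above miR-15b-5p by 14.5-fold and miR-15c-2-3p above miR-15e-5p by 2.60-fold (ratios of means). At the other steps the ranges of neighbours overlapped. Thus miR-16b-5p (1419 ± 200 CPM, SD, n = 6), miR-15d-5p (1315 ± 222), miR-15c-5p (1019 ± 303) and miR-16c-5p (943 ± 130) overlapped each with the next, and miR-15c-5p exceeded miR-16c-5p in 3 of 6 libraries. Within a library the upper of the pair lay above in all 6 libraries at 5 of the 14 steps. Besides those 3, these were miR-15a-5p over miR-15e-3p and miR-15e-3p over miR-16a-2-3p, whose ranges overlapped.

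None of the 15 tested members differed between 24 °C and 18 °C in edgeR's quasi-likelihood test with Benjamini-Hochberg adjustment over 537 rows. Their adjusted p-values ran from 0.76 to 0.996, and 0 of 15 had an unadjusted p under 0.05. Over all 537 rows 0.186% passed on adjusted p in either direction and 6.52% had an unadjusted p under 0.05. DESeq2 and limma-voom also called 0 of 15 members, with 0 unadjusted p under 0.05 in each; DESeq2 called 0.931% of all rows. No member had all heat fish on 1 side of all control fish, where 12.8% of the 537 rows did. The median log2 fold change of the 15 members was 0.02, and over all tested rows it was 0.002.

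Among the abundant 5p rows, the differences were small and measured with the least error for miR-16a, miR-16b, miR-16c and miR-15d. The mean of miR-16a-5p was 9518 ± 1744 CPM in the control and 9014 ± 1300 CPM in the heat fish (SD, n = 3 each), with a log2 fold change of -0.08 ± 0.19 (SE; 95% interval -0.51 to 0.36; edgeR adjusted p = 0.95). For miR-16b-5p the log2 fold change was -0.07 ± 0.19 and for miR-16c-5p -0.10 ± 0.20, with adjusted p-values of 0.95 and 0.93 in edgeR. Those of miR-15d-5p (0.02 ± 0.22) and miR-15c-5p (-0.04 ± 0.32) were also small, as were those of the rare miR-15b-5p (0.01 ± 0.33) and miR-15e-5p (0.01 ± 0.35). The 95% intervals of 7 of the 8 rows of the 5p arm lay inside 2-fold either way. The exception was miR-15a-5p.

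The largest estimates belonged to rare rows. The mean of miR-15a-3p was 49.02 ± 25.8 CPM in the control and 76.7 ± 38.1 CPM in the heat fish (SD, n = 3 each), with a log2 fold change of 0.65 ± 0.48 (95% interval -0.48 to 1.78; edgeR adjusted p = 0.76). Without heat fish 3 it was 0.14, and without control fish 2 it was 1.11. The other arm, miR-15a-5p, had a log2 fold change of 0.42 ± 0.36 (adjusted p = 0.83 in edgeR), and miR-15b-3p one of 0.48 ± 0.36 (0.76). On the negative side stood miR-16a-2-3p at -0.49 ± 0.47 (edgeR adjusted p = 0.84), from 94 counts in all. Of the 7 tested rows of the 3p arm, 1 had an interval inside 2-fold (miR-16b-3p), and the intervals of the other 6 reached past a 2-fold change on at least 1 side. Among all tested annotated 3p rows, 69 of 146 had an interval inside 2-fold. That set is not matched for level, since it includes far more abundant rows such as miR-126-3p (79361 to 104429 CPM). Among all tested rows of 10 to 100 CPM the share inside 2-fold was lower. The few and wide intervals of the family's 3p rows are therefore not shown to be unusual for their level.

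**Figure D2:**
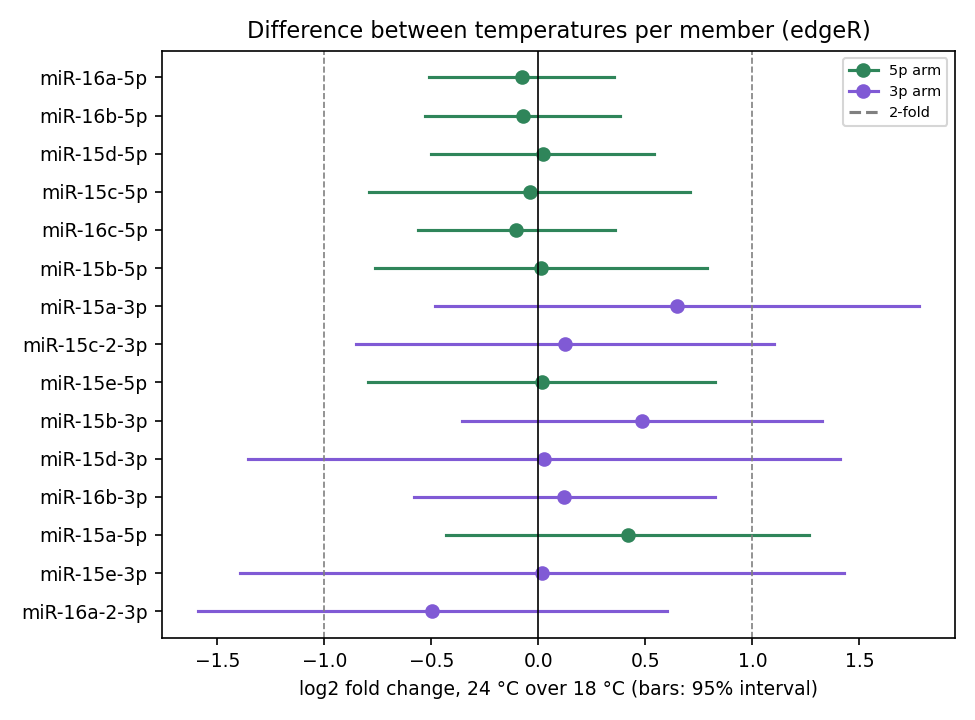
Log2 fold change (24 °C over 18 °C) of each tested member in the edgeR fit, ordered by level, with 95% intervals as bars; green marks 5p arms, purple 3p arms, and dashed lines a 2-fold change. Every interval includes 0, and those of miR-16a-5p, miR-16b-5p, miR-16c-5p and miR-15d-5p are the narrowest.

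The 3p rows and the miR-15 rows shared 1 feature across fish. These 2 sets overlap, since 5 of the 7 tested 3p rows are miR-15 rows, and rows of 1 library are not independent. Heat fish 3 held the highest level of 9 of the 10 tested miR-15 rows and of 6 of the 7 tested 3p rows. Over all 15 tested members the count was 10, with 4 of the 8 tested 5p rows and 1 of the 5 tested miR-16 rows. In that fish 19.4% of all 537 rows and 24.0% of the tested annotated 3p rows were highest. The same fish had the most of the erythroid list (3052 CPM). Heat fish 1 and 2 had 405 and 1604 CPM of it, and the control fish 383 to 870 CPM. Heat fish 3 also had the most of the striated muscle list (2326 CPM). Heat fish 1 and 2 had 1137 and 1594 CPM of that list, and the control fish 411 to 725 CPM. The sum of the leukocyte list was highest in heat fish 3 too (17472 CPM, against 17031 CPM in control fish 1), as was miR-142a-5p (6675 CPM). The other tested rows of that list peaked elsewhere. miR-142a-3p, miR-142b-3p and miR-142b-5p were highest in control fish 1, and miR-150-5p and miR-155-5p in heat fish 2. Lists of endothelial (miR-126), epithelial (miR-200, miR-203, miR-205 and miR-429) and liver (miR-122) rows were each highest in a control fish. The erythroid sum was nearly all miR-144-5p (3015 CPM in heat fish 3), while the other row, miR-144-3p, was highest in control fish 1 (40.4 CPM, against 36.8 CPM in heat fish 3). In the muscle list, the gap between the groups in the sum leaned on miR-499a-5p. This row had more counts in each heat fish than in any control fish. miR-1-3p was highest in heat fish 3 (1037 CPM), but its groups overlapped. It had 193 CPM in heat fish 1 and 276 CPM in control fish 3. miR-499b-5p went the other way from the sum and was lowest in heat fish 3. Of the erythroid list 0 of 2 tested rows passed, of the leukocyte list 0 of 6, and of the muscle list 1 of 6. The part of these lists in the family's values was not tested. Heat fish 2 held the lowest level of 9 of the 15 members, against 14.5% of all tested rows. These were 7 of the 8 tested 5p rows and 2 of the 7 tested 3p rows.

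The balance of the arms is a measure that the choice of rows did not use. In miR-15a the 3p arm outnumbered the 5p arm in every library. There were 4.83, 6.81 and 3.70 counts of 3p for each of 5p in the control fish and 6.12, 4.48 and 7.44 in the heat fish. A 3p arm that led in all 6 libraries was seen in 26 of the 79 hairpins whose arms each averaged 10 counts or more, so miR-15a was not alone in this. In the other hairpins of the family the 5p arm led, by 1.96 to 6.64-fold in miR-15e, 2.75 to 4.51-fold in miR-15b, 49.5 to 152-fold in miR-15d and 102 to 154-fold in miR-16b (with 0.5 added to each count). With the 3p copies of a letter summed, it led by 15.7 to 26.2-fold in miR-15c and 1794 to 4948-fold in miR-16a. How reads matching several rows were counted is not stated, so these leads, also that in miR-15a, hold for the rows as counted.

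Arm balance did not pass a test between temperatures in any of the 5 hairpins that could be compared by name (limma on log2 ratios, 79 hairpins; 0% of all hairpins called). None of the 5 had an unadjusted p under 0.05, against 8.86% of all hairpins. The smallest p belonged to miR-15b, whose log2 ratio of 5p to 3p counts was 2.17, 1.72 and 1.94 in the control fish and 1.58, 1.48 and 1.46 in the heat fish. All heat fish lay below all control fish, as in 11.4% of the 79 hairpins in either direction, and the difference was -0.44 ± 0.24 (SE; 95% interval -0.99 to 0.11; limma adjusted p = 0.57). For miR-15a it was -0.25 ± 0.32, for miR-15d 0.19 ± 0.43, for miR-15e 0.20 ± 0.44 and for miR-16b -0.18 ± 0.25, each with a limma adjusted p of 0.96. With the 3p copies of a letter summed (91 hairpins), miR-16a and miR-15c could be compared too. The difference was 0.55 ± 0.38 for miR-16a, from few 3p counts, and -0.17 ± 0.27 for miR-15c (limma adjusted p = 0.69 and 0.92). The 3p arms took 1.06% ± 0.182 of the family's counts in the control fish and 1.39% ± 0.474 in the heat fish (SD, n = 3 each), with 1.93% in heat fish 3 and 0.868% to 1.23% in the other 5 fish.

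**Figure D3:**
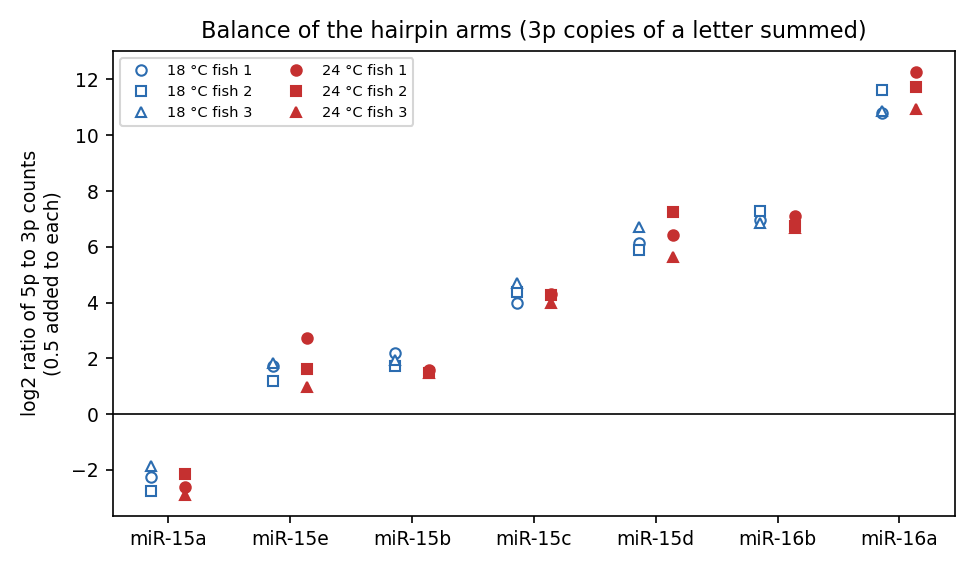
Log2 ratio of 5p to 3p counts (0.5 added to each) of 7 hairpin letters in each library, with 3p copies of a letter summed; open blue symbols are 18 °C fish and filled red symbols 24 °C fish. Values below 0 mean that the 3p arm leads, which is seen for miR-15a in all 6 fish.

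The levels of the 3 miR-16 rows of the 5p arm stayed in nearly fixed proportion from fish to fish. The ratio of miR-16a-5p to miR-16b-5p was 6.31, 6.70 and 6.58 in the control fish and 6.51, 6.53 and 6.51 in the heat fish. Its coefficient of variation over 6 libraries was 1.97%, while counting error alone gives 1.35%, and the level of miR-16a-5p itself varied by 15.1%. The ratio of miR-16b-5p to miR-16c-5p varied by 3.41% and that of miR-16a-5p to miR-16c-5p by 4.89%. Among the 8646 pairs of 132 annotated rows with a mean of at least 100 CPM, these 3 ratios ranked 1st, 3rd and 10th from the least variable (SD of the log2 ratio 0.03, 0.05 and 0.07; median over all pairs 0.41). The other 7 of the 10 least variable pairs joined rows of different families. The sources used here do not state how reads matching several rows were counted, so shared production and shared reads cannot be told apart.

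The ratios of miR-16a-5p to the miR-15 rows of the 5p arm varied more from fish to fish. The ratio of miR-16a-5p to miR-15d-5p ran from 6.15 to 7.995 (coefficient of variation 10.5%), and that to miR-15c-5p from 7.70 in control fish 2 to 10.9 (14.8%). By Pearson's r of log2 CPM over the 6 libraries, miR-15c-5p nonetheless followed miR-16a-5p (0.97) as closely as miR-16c-5p did (0.94), with a wider swing between fish. For miR-15b-5p the ratio ran from 103.2 to 202 (25.6%). Within miR-15, the ratio of miR-15d-5p to the rare miR-15e-5p varied by 7.47%, less than the 10.6% that counting error alone gives, around a mean of 64.3. The summed 5p counts of miR-16 were 5.06, 4.75 and 4.99 times those of miR-15 in the control fish and 4.66, 5.48 and 4.16 times in the heat fish, so the heat fish spanned the control values on both sides.

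**Figure D4:**
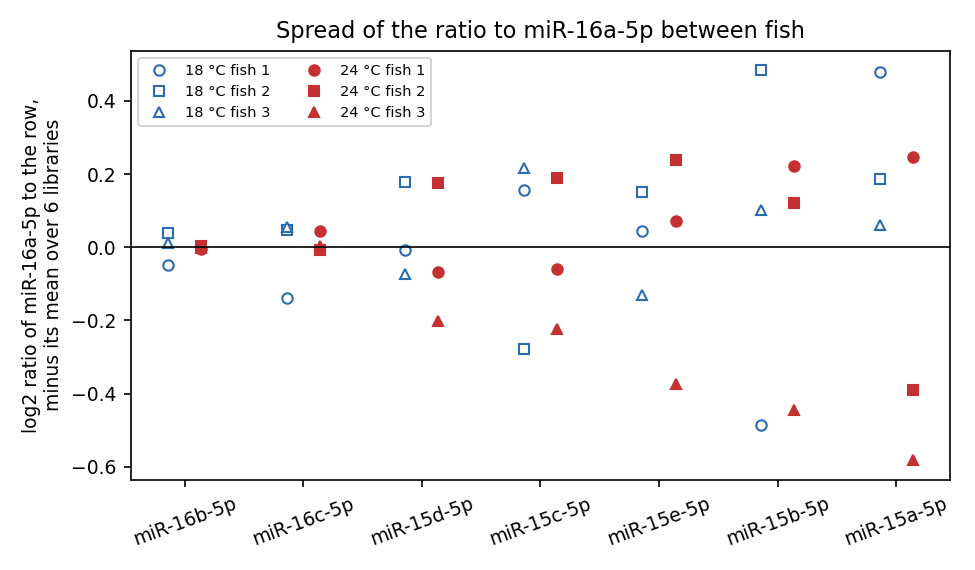
Log2 ratio of miR-16a-5p to each other 5p row of the family, minus its mean over the 6 libraries, with rows ordered from the least to the most variable; symbols as fish number, open blue for 18 °C and filled red for 24 °C. miR-16b-5p and miR-16c-5p spread least (SD of the log2 ratio 0.03 and 0.07), with miR-16c-5p farthest from 0 in control fish 1. The miR-15 rows spread further, with heat fish 3 below 0 in each of them.

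Outside the family, the annotated rows of at least 100 CPM whose level followed miR-16a-5p most closely over the 6 libraries were miR-181b-5p (Pearson's r of log2 CPM 0.96, Spearman's rho 0.94), miR-100a-5p (0.93 and 0.94), miR-106a-3p (0.93 and 0.89), miR-25-3p (0.75 and 0.89) and miR-143-5p (0.72 and 0.77). They were picked as the highest of 127 rows, and the 6 points share their library scaling, so the values describe likeness only. Without control fish 2 and heat fish 2, the 2 fish farthest from the median of miR-16a-5p, r was 0.93, 0.89, 0.74, 0.73 and 0.34 in the same order. The value of miR-143-5p fell most, but r over the few fish left is imprecise.

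Families known to share the seed of miR-15 and miR-16 in other vertebrates (miR-195, miR-322, miR-424, miR-457, miR-497 and miR-503) had 0 annotated rows. miR-103 and miR-107, whose seed is that of the family shifted by a base, had 4 rows, of which the 2 of the 3p arm were tested and 0 passed in edgeR. miR-103-3p stood at 674, 784 and 704 CPM in the control fish and 676, 709 and 757 CPM in the heat fish (log2 fold change -0.01 ± 0.16, edgeR adjusted p = 0.996). miR-107-3p stood at 139, 166 and 131 CPM and at 122.5, 122.1 and 163 CPM (-0.09 ± 0.23, edgeR adjusted p = 0.95). In both rows the groups overlapped, as they did in the family.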

How the data were processed

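The authors deposited 1 table with whole-number read counts per miRNA and TPM values. The deposited TPM values were the counts rescaled by library total (to within 2.33e-10), without a length term, and were not tested. The submitters' processing notes name Bowtie. The sources used here state neither its version nor the genome build, nor how reads matching several rows were counted. Libraries were made from total RNA with a NEBNext small RNA kit, per the labels' protocols, and were grouped by title.

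The whole count table was tested with edgeR 4.0.16 (R 4.3.3): rows kept by filterByExpr (minimum count 10, minimum total 15; 537 rows), TMM scaling, a robust quasi-likelihood fit, and Benjamini-Hochberg adjustment over the kept rows with a threshold of 0.05. Standard errors are the log2 fold change over the root of F. Arm ratios used limma 3.58.1 on log2 ratios with 0.5 added, over hairpins whose arms each averaged 10 counts or more. DESeq2 1.42.0, limma-voom, other scalings and filters, summed copies, a replicate block and each library left out were alternatives. The scripts were tested on simulated data. Every pair of libraries differed beyond sampling noise (chi-square of at least 117 per degree of freedom). Members and lists were chosen with earlier results of these data known. All members are named, and non-members by the fixed lists, or as the 5 annotated rows of at least 100 CPM closest to the most abundant member. Intervals of shares and floors cover counting error only. Figures were drawn with matplotlib 3.10.9.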

Additional observations from a re-analysis of the deposited data

How the results depend on the processing

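The count of members called was 0 in each direction under all 18 alternatives run, including a fit that is not robust, which was added after the results were seen. The smallest unadjusted p of any member under any of them was 0.058, and the smallest adjusted p was 0.58 (miR-15a-3p without control fish 2). With a replicate block, which tests temperature with fish of the same number treated as pairs, 0 members and 0 arm ratios were called. The numbers are not stated to pair fish and were not taken as pairs in the main test. The deviations of same-numbered fish from their group means correlated at -0.06, -0.19 and -0.15. Of 267 log2 fold changes of members under the alternatives, 53 had the other sign, in 10 members whose own estimate was at most 0.12 in size. The 267 include the main estimates once more, from a looser threshold on adjusted p, and those could not change sign. The largest swings came from leaving out a fish: miR-15e-3p ran from -0.92 (without heat fish 3) to 0.40 and miR-15d-3p from -0.63 (without heat fish 3) to 0.44. The log2 ratio of the summed level ran from -0.16 to 0.06 without a fish, and was -0.06 on library totals and -0.07 with DESeq2 size factors. The count of arm ratios called was 0 under the 11 alternatives, one of which (3p copies summed) was added after the results were seen; the smallest adjusted p was 0.35, for miR-15b without control fish 2. Other scalings moved the median of all rows by less than 0.1 on the log2 scale. Rows under about 30 CPM rest on few reads, which limits what can be said of the rarer 3p rows. The means of miR-15a-3p (62.8 CPM) and miR-15c-2-3p (53.7 CPM) lay above that level, and their intervals also reached past a 2-fold change.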
